A study of Mus musculus with 9 samples.

Results

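The transcription factors examined here are 9 genes that are known for their part when enzyme-secreting acinar cells of the pancreas take on features of duct or progenitor cells: Sox9, Onecut1, Onecut2, Hes1, Klf4, Klf5, Klf6, Myc and Sox4. They were chosen by gene symbol, with no threshold on a measured value. All 9 were found among the 17132 genes of the deposited table, and 8 passed the filter on low counts, Onecut2 being the exception. Transcripts were sequenced from the pancreas of C57BL/6 mice, 3 mice in each of 3 groups, and the organ was collected 24 h after the injections began. Control mice received 7 hourly injections of saline into the peritoneal cavity, followed by saline as treatment. Model mice received 7 such injections of caerulein, an analogue of cholecystokinin that overstimulates acinar cells, with lipopolysaccharide (LPS) at the last one, and saline as treatment. QYD mice received caerulein and LPS in the same way, and Qingyi Decoction, a herbal preparation, at 0 h and 8 h. Every mouse was of the same strain, none carried a transgene according to the labels, and the sources used here do not state their age. The values describe whole pancreas, in which a lower number of cells of a type and less RNA per cell cannot be told apart.

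Acinar cells make most of the RNA of a healthy pancreas, and their identity is held by factors such as PTF1A and its partner RBPJL. In pancreatitis, surviving acinar cells can lose zymogen granules, switch on keratins and other duct genes and form tube-like structures, a change called acinar-to-ductal metaplasia. SOX9 and ONECUT1 (HNF6) are duct and progenitor factors that are able to drive duct genes in acinar cells, HES1 is a repressor switched on by Notch signalling, KLF4 and KLF5 are zinc finger factors linked to duct-like and precancerous acinar lesions, and MYC drives growth genes.

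Libraries held 19112923 to 20212744 estimated counts, and their make-up differed. The 50 most abundant genes took 90.8% to 91.4% of counts in Control, 64.8% to 70.2% in Model and 65.6% to 71.98% in QYD. Levels are therefore given on 2 scales. CPM of the library total, the usual depth-scaled count, relates a gene's count to all counts of its library, and CPM on the TMM scale relates it to an effective library size that sets the typical gene level between libraries. On library totals the median of all 12828 tested genes stood 2.19 log2 units higher in Model than in Control and 2.09 higher in QYD than in Control, against 0.04 and 0.06 on the TMM scale. "Rose" and "fell" refer to the TMM scale, that is to the typical gene, unless library totals are named. A gene was called at an adjusted p of 0.05 or less from edgeR's quasi-likelihood fit, adjusted over all tested genes by Benjamini and Hochberg's method. Nothing in the labels ties a mouse to a batch. The gene lists used below were chosen with earlier results of these data known. Their counts beside the share of all genes are therefore a description and not a test.

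The stretches before the starts of Sox4, Klf6 and Klf4 are shown because these genes took different courses, as described further on: Sox4 rose on either scale, Klf4 fell on the TMM scale and was higher on library totals, and Klf6 passed on library totals alone. Entries of RefSeq's promoter table, build GRCm38.p6, were used for 4 of the 9 members, the other one being Onecut1. This count does not show that the table lacks the remaining members. Each sequence holds the 250 bases before the annotated start, 5′ to 3′ on the gene's strand, and capitals mark matches to 6 motifs searched on both strands: GGGCGG (the GC box of SP and KLF factors), CACGTG (the E-box of MYC and MAX), CCAAT (the box bound by NF-Y), TATAAA (the TATA box), GTGGGAA (the site of RBPJ) and TGANTCA (the site of AP-1). GC boxes may overlap each other, as in Klf4.
Sox4, chr13:28953700-28953949, minus strand: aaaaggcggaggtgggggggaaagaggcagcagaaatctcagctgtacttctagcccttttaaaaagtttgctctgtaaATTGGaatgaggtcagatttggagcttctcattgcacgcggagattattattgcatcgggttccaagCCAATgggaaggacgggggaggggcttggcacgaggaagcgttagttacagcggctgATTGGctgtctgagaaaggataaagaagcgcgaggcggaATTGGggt
Klf6, chr13:5861239-5861488, plus strand: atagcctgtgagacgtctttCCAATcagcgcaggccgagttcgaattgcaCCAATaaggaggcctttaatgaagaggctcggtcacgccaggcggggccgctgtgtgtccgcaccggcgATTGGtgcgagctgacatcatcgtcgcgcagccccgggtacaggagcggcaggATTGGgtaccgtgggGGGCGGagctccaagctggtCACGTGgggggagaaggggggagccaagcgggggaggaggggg
Klf4, chr4:55532476-55532725, minus strand: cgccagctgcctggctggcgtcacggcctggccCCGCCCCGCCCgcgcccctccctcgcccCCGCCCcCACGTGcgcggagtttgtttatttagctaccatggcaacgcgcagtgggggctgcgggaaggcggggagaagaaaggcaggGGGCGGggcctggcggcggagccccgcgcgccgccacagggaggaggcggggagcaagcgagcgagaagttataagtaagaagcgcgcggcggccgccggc

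The Sox4 stretch held 4 matches to CCAAT and none to the other motifs, and 50.8% of its bases were G or C, near the median of 52.4% over all 32851 promoters. The Klf6 stretch also held 4 matches to CCAAT, beside 1 to GGGCGG and 1 to CACGTG. The Klf4 stretch, with 74.0% G or C, held 4 matches to GGGCGG and 1 to CACGTG. Onecut1 held 1 match to CACGTG and 2 to GGGCGG. Of all promoters of this length, 33.8% held CCAAT, 32.7% GGGCGG, 6.02% CACGTG, 12.4% TATAAA, 5.42% GTGGGAA and 6.75% TGANTCA. These are matches of letters and not measured binding.

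Among the duct and progenitor factors, Sox9 and Onecut1 were present at low levels in every mouse and did not rise above the typical gene. Sox9 (chromosome 11, 112782210 to 112787757, GRCm38.p6) stood at 36, 35 and 30 estimated counts in Control 43, 44 and 45, at 106, 87 and 95 in Model 56, 57 and 59, and at 106, 66 and 72 in QYD 65, 66 and 68. On library totals all 6 injured mice lay above all Control mice. Of all tested genes, 94% were called higher on that scale in Model versus Control and 93.8% in QYD versus Control. On the TMM scale the order turned, with 4.43 ± 0.61 CPM in Control (SD over 3 mice), against 2.97 ± 0.35 for Model and 2.66 ± 0.44 for QYD, and every injured mouse was below every Control mouse. Such a gap between Model and Control was found in 24.9% of all tested genes. Sox9 thus fell on the TMM scale in Model versus Control (log2 fold change -0.58 ± 0.20 SE, edgeR adjusted p = 0.040) and was higher on library totals (1.57 ± 0.26, adjusted p = 4.3e-05), where it rose less than the median gene. The TMM call is near the threshold and was lost without Control 43 (edgeR adjusted p = 0.129), Control 44 (0.083), Model 56 (0.079), Model 57 (0.122) or QYD 68 (0.057).

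Onecut1 (chromosome 9, 74861921 to 74889648), which acts upstream of duct and endocrine factors in development, was counted 9 to 10 times in each Control library, 20 to 28 times in Model and 17 to 28 times in QYD. On the TMM scale it stood at 1.27 ± 0.13 CPM in Control, 0.78 ± 0.19 in Model and 0.70 ± 0.11 in QYD, again with no overlap between injured and Control mice. Model lay wholly below Control in 24.9% of all tested genes. The log2 fold change of Onecut1 in Model versus Control was -0.71 ± 0.33 on the TMM scale, which did not pass (edgeR adjusted p = 0.107), and 1.42 ± 0.38 on library totals, which did (edgeR adjusted p = 0.0027). At about 10 counts in a Control library, a change of this size is measured with a wide error.

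Onecut2 (chromosome 18, 64340032 to 64398488), a close relative of Onecut1, was nearly silent in 7 of 9 libraries, with 0, 2 and 0 estimated counts in Control 43, 44 and 45, 1 and 1 in Model 56 and 57, and 0 and 1 in QYD 65 and 66. It reached 24 counts in Model 59 and 14 in QYD 68, mice of different groups. A count of 0 in Control 45 allows up to 0.151 CPM of the library total, set against 1.26 CPM in Model 59, and these limits cover counting error only. Onecut3, the remaining family member, had 1 count in QYD 68 and 0 elsewhere. A search made after these values were seen, for genes over 15 counts in Model 59, over 10 in QYD 68 and in both over 3 times every other library, returned Onecut2 and 3 further genes. These were Sptssb (30 and 13 counts in Model 59 and QYD 68, at most 2 elsewhere), the secreted inhibitor Spink4 (22 and 21, at most 5 elsewhere) and the membrane mucin Muc4 (70 and 22, at most 6 elsewhere). The mucin Muc13, looked up at the same time, was also highest in these libraries (97 and 68 counts against 40 and 25 in the other Model mice and 16 and 18 in the other QYD mice), as was the progenitor marker Olfm4 (55 and 46, against 17 to 28 in the other injured mice). Spink4, Muc13 and Olfm4 are also known as genes of the intestine. Other intestinal genes looked up were Vil1, with 11 and 13 counts in Model 59 and QYD 68 and 3 to 13 elsewhere, Fabp1 and Reg4, both listed at 0 and 0 in this pair, and Fabp2, Apoa4, Muc2 and Phgr1, each at 1 and 0. Apoa4 was highest in Control 43 (6 counts) and Model 56 (10 counts), as were Fabp2 (3 and 5) and Muc2 (3 and 4). Fabp1 had 2 counts in Model 56 and at most 1 elsewhere. The liver gene Alb was counted 1 and 7 times in the pair and 0 to 11 times elsewhere. The part of RNA from other tissue in the Onecut2 counts was not tested. No test was made on genes picked in this way.

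**Figure D1:**
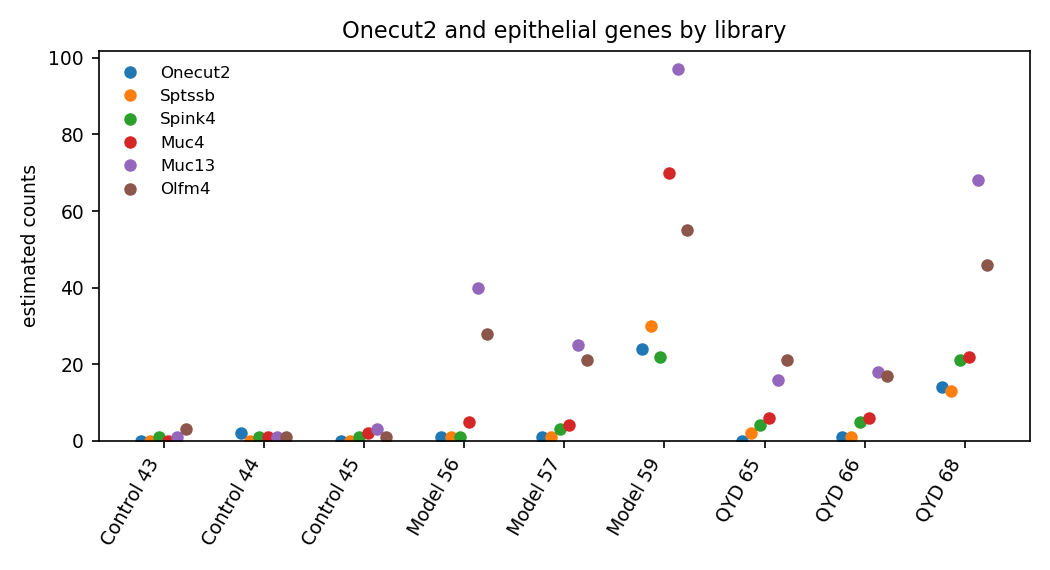
Estimated counts (y axis, linear) of Onecut2 and 5 epithelial genes in each of the 9 libraries (x axis), 1 point per gene and library. Onecut2 stands at 24 in Model 59 and 14 in QYD 68 and at 0 to 2 in the other libraries. Muc4, Sptssb and Spink4 were picked for being high in the same pair. Muc13 and Olfm4 were looked up by name, and the other genes looked up are not drawn.

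Hes1 (chromosome 16, 30065357 to 30067796) followed the typical gene. It was counted 28, 18 and 13 times in Control 43, 44 and 45, 123, 72 and 86 times in Model 56, 57 and 59, and 95, 95 and 75 times in QYD 65, 66 and 68. Its level on the TMM scale was 2.62 ± 1.17 CPM in Control, 2.88 ± 0.69 in Model and 2.92 ± 0.23 in QYD, and the groups overlapped. The log2 fold change in Model versus Control was 0.15 ± 0.30 (edgeR adjusted p = 0.72), against 2.30 ± 0.32 on library totals, close to the median of all genes there. The SD of Control was the largest of the groups, and without Control 43 the value was 0.55 and without Control 45 it was -0.10.

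The other Notch pathway genes, a list of 36 of which 33 were tested, moved in both directions. In Model versus Control 9 were called higher and 8 lower, with a median log2 fold change of 0.23 (2.38 on library totals), beside 21.3% of all tested genes called higher and 21.3% lower. Lfng, a fucose-extending enzyme that tunes Notch receptors, fell from 12.6 ± 6.404 to 2.22 ± 0.38 CPM on the TMM scale (log2 fold change -2.49 ± 0.32, edgeR adjusted p = 0.00018), and its value on library totals was -0.32, which did not pass. Its relative Rfng was lower on the TMM scale as well (-1.29 ± 0.17) and higher on library totals (0.85). Adam17, a shedding protease that can cut Notch and releases EGF receptor ligands, rose from 6.46 ± 3.22 to 20.9 ± 1.87 CPM (1.69 ± 0.24, edgeR adjusted p = 0.00033) and also on library totals (3.84). Rbpj, the DNA-binding partner of activated Notch, stood at 0.30 ± 0.15 and did not pass on the TMM scale.

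Of the 3 KLF members, Klf5 rose, Klf4 fell on the TMM scale and Klf6 did not pass there. Klf5 (chromosome 14, 99298691 to 99313412), a factor of proliferating epithelium, was counted 8, 10 and 10 times in Control 43, 44 and 45, 123, 106 and 143 times in Model 56, 57 and 59, and 58, 63 and 96 times in QYD 65, 66 and 68. Every injured mouse was above every Control mouse on either scale. Model lay wholly above Control in 27.4% of all tested genes on the TMM scale. On library totals 94% of all tested genes were called higher in Model versus Control. On the TMM scale Klf5 went from 1.22 ± 0.09 CPM in Control to 3.87 ± 0.94 in Model (SD over 3 mice), which is 1.65 ± 0.36 log2 units higher (edgeR adjusted p = 0.0036), and 3.77 ± 0.30 higher on library totals. That placed it at percentile 94.1 of all tested genes by fold change. The call held without any 1 library, with values from 1.45 to 1.78.

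Klf4 (chromosome 4, 55527137 to 55532475), a factor of differentiated epithelium and of some stromal and immune cells, was counted 41, 65 and 40 times in Control, 132, 159 and 117 times in Model and 147, 122 and 100 times in QYD, in the order of the mouse numbers. On the TMM scale it stood at 6.36 ± 1.69 CPM in Control, 4.18 ± 0.49 in Model and 4.04 ± 0.29 in QYD, with Control mice above all injured ones. Model lay wholly below Control in 24.9% of all tested genes. Klf4 fell in Model versus Control by 0.61 ± 0.20 log2 units on the TMM scale (edgeR adjusted p = 0.029) and was higher on library totals by 1.54 ± 0.25. Control 44 was the highest of the Control mice, and without it the value was -0.37 (edgeR adjusted p = 0.139). The call was also lost without Model 56 (edgeR adjusted p = 0.087) or Model 59 (0.070).

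Klf6 (chromosome 13, 5861489 to 5870393), an early response gene of many tissues, was the member with the highest count in each injured library. It was counted 187, 124 and 186 times in Control, 1763, 971 and 686 times in Model and 1079, 668 and 1261 times in QYD. Model 56 was far above the other Model mice, and the groups overlapped on the TMM scale, at 21.9 ± 5.40, 34.3 ± 14.2 and 33.6 ± 12.4 CPM. The log2 fold change in Model versus Control was 0.65 ± 0.33 (edgeR adjusted p = 0.132), 0.27 without Model 56, and 2.84 ± 0.34 on library totals. Among the other KLF genes, 11 of 14 were tested. In Model versus Control on the TMM scale 1 was called higher and 2 lower, with a median of -0.08. Of all tested genes, 21.3% were called higher there and 21.3% lower. Klf7 rose (0.90 ± 0.16 on the TMM scale, edgeR adjusted p = 0.0010, and 3.05 on library totals). Klf15, known as a glucocorticoid-induced and metabolic factor, fell on the TMM scale from 74.6 ± 9.75 to 17.7 ± 7.18 CPM (-2.08 ± 0.28, edgeR adjusted p = 0.00022) and stood at 0.04 on library totals. Klf9 was lower on the TMM scale (-0.65 ± 0.17) and higher on library totals (1.501).

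Myc and Sox4 went opposite ways relative to the typical gene. Myc (chromosome 15, 61985341 to 61990361) was counted 204, 183 and 129 times in Control 43, 44 and 45, 395, 233 and 232 times in Model 56, 57 and 59, and 294, 253 and 250 times in QYD 65, 66 and 68. Its level on the TMM scale was 22.7 ± 6.08 CPM in Control, 8.75 ± 2.28 in Model and 8.79 ± 0.45 in QYD, and no injured mouse reached the lowest Control mouse. Model lay wholly below Control there in 24.9% of all tested genes. On that scale Myc fell by 1.37 ± 0.22 log2 units in Model versus Control (edgeR adjusted p = 0.00057), at percentile 5.88 of all tested genes, while on library totals it was higher by 0.80 ± 0.23 (edgeR adjusted p = 0.0051). The TMM call held without any 1 library, with values from -1.602 to -1.18.

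Sox4 (chromosome 13, 28948919 to 28953699), an HMG-box factor of progenitor cells and of epithelium exposed to TGF-beta, showed the largest increase of the 8 tested members on either scale. It was counted 14, 26 and 42 times in Control 43, 44 and 45, and 637, 465 and 587 times in Model 56, 57 and 59. In QYD 65, 66 and 68 it was counted 324, 257 and 334 times, so that the 3 groups did not overlap. On the TMM scale Sox4 went from 3.54 ± 1.70 CPM in Control to 17.4 ± 3.27 in Model (SD over 3 mice), which is 2.29 ± 0.29 log2 units higher (edgeR adjusted p = 0.00015), and on library totals the change was 4.42 ± 0.30. Its fold change lay at percentile 97.3 of all tested genes, and in 27.4% of these Model lay wholly above Control on the TMM scale. The highest Control mouse was Control 45, and without it the TMM value was 2.71.

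**Figure D2:**
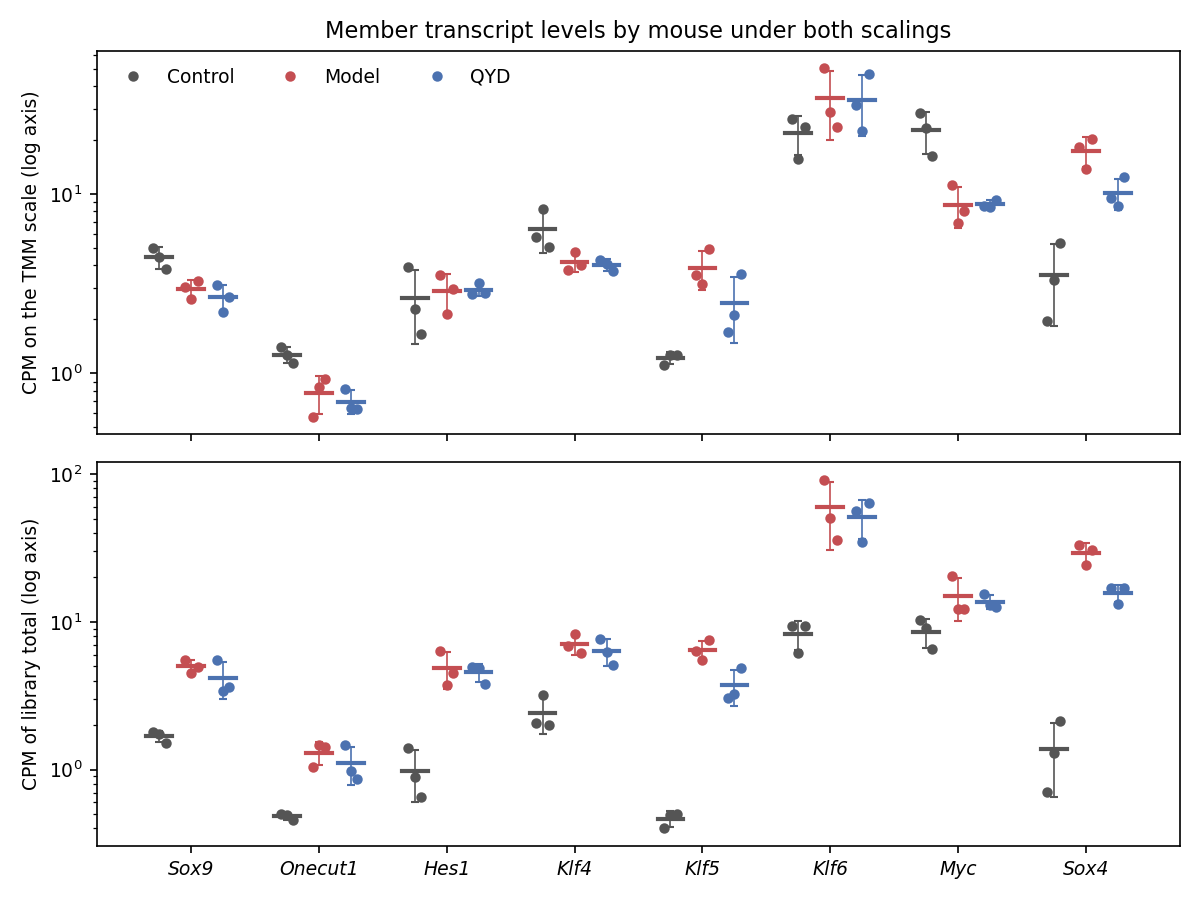
CPM on the TMM scale (top) and CPM of the library total (bottom), both on log axes, of the 8 tested members, with 1 point per mouse, lines for the group means and error bars for the SD (n = 3). Sox4 and Klf5 are higher in Model than in Control in both panels, whereas Sox9, Onecut1, Klf4 and Myc are lower in the top panel and higher in the bottom one.

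In all, 2 of the 8 tested members were called higher in Model versus Control (Sox4 and Klf5) and 3 lower (Sox9, Klf4 and Myc) on the TMM scale. Of all tested genes, 42.6% were called in either direction there, so that 5 of 8 is not far from the background. On library totals all 8 were called higher, and so were 94% of all genes. The smaller TMM changes depended on the method. Sox9 was not called by DESeq2 (adjusted p = 0.061), by limma-voom with sample weights (0.093), by edgeR with no filter (0.083) or by edgeR on only the compared groups (0.056). Klf4 was called by DESeq2 (adjusted p = 0.025) but not by limma-voom (0.083), by edgeR with no filter (0.053) or by edgeR on only the compared groups (0.058). Tissue and cell markers differed between the same groups. All 16 tested acinar enzyme markers fell in Model versus Control on the TMM scale, with a median of -3.29 (-1.15 on library totals, where 13 were lower and 2 higher). Neutrophil markers rose in 14 of 16 cases, and their summed level went from 11.1 to 52.5 CPM on the TMM scale in Control to 165 to 227 in Model and 189 to 351 in QYD, with none at 0 in any group. Of 15 macrophage markers 7 were called higher and 2 lower, with summed levels of 132 to 229 CPM in Control and 126 to 253 in Model. Summed endothelial markers (114 to 159 and 113 to 149 CPM) and fibroblast markers (313 to 423 and 312 to 506 CPM) overlapped between Control and Model on the TMM scale. Endothelial markers were called higher in 3 and lower in 3 of 14 cases, and fibroblast markers in 4 and 3 of 14. Islet markers fell in 10 of 15 cases on the TMM scale, from summed levels of 868 to 1295 CPM in Control to 177 to 372 in Model. On library totals 7 of the 15 islet markers were called higher and none lower, and their sums overlapped (316 to 513 and 268 to 676 CPM). Library totals also put 16 of 16 neutrophil, 15 of 15 macrophage, 13 of 14 endothelial and 14 of 14 fibroblast markers higher. Adipocyte markers were higher in 1 and lower in 3 of 10 cases, and none of 11 B and plasma cell markers or 6 T and NK cell markers was called by edgeR. The part of these cells in the members' values was not tested.

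**Figure D3:**
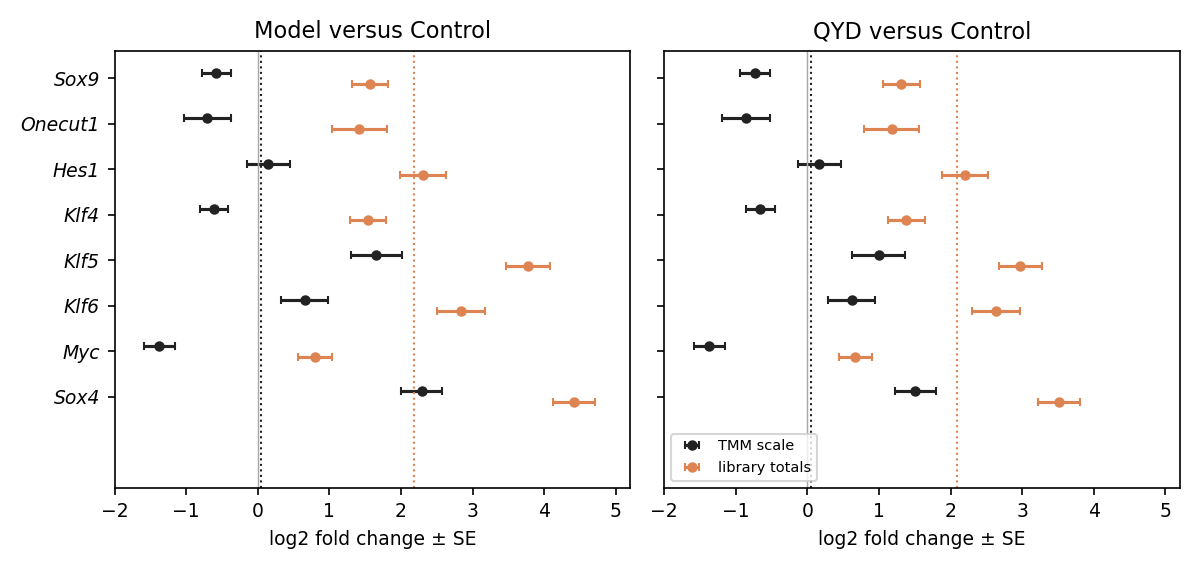
Log2 fold changes ± SE of the 8 tested members in Model versus Control (left) and QYD versus Control (right), on the TMM scale (black) and on library totals (orange), with dotted lines at the median of all tested genes. Sox4 and Klf5 lie to the right of the median on both scales and Myc, Sox9, Klf4 and Onecut1 to the left of it, which is positive for those 4 on library totals.

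FPKM, which divides by gene length, allows levels of different members to be compared within a group. In Control the order was Myc (3.79 ± 0.84 FPKM, SD, n = 3), Klf6 (2.03 ± 0.46), Klf4 (0.83 ± 0.23), Hes1 (0.75 ± 0.31), Sox4 (0.48 ± 0.25), Sox9 (0.42 ± 0.04), Klf5 (0.29 ± 0.03), Onecut1 (0.29 ± 0.02) and Onecut2 (0.003, at 0 in 2 of 3 libraries). In Model Klf6 (14.5 ± 7.06 FPKM) and Sox4 (10.3 ± 1.63) came first, followed by Myc (6.58 ± 2.13), Klf5 (4.04 ± 0.62), Hes1 (3.72 ± 1.03), Klf4 (2.43 ± 0.38), Sox9 (1.25 ± 0.12) and Onecut1 (0.77 ± 0.14). Neighbours in this order such as Klf6 (8.78 to 22.4) and Sox4 (8.52 to 11.7), or Klf5 (3.44 to 4.68) and Hes1 (2.86 to 4.86), overlapped in range. In QYD the order was Klf6 (12.6 ± 3.75 FPKM), Myc (6.04 ± 0.64), Sox4 (5.54 ± 0.75), Hes1 (3.48 ± 0.46), Klf5 (2.33 ± 0.63), Klf4 (2.18 ± 0.45), Sox9 (1.05 ± 0.29) and Onecut1 (0.65 ± 0.19), and Myc and Sox4 overlapped there (5.60 to 6.78 and 4.67 to 5.98). Sox4 thus moved from a middle place in Control to the place after Klf6 in Model, and Klf5 from near the bottom to the place after Myc.

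A ratio of a pair of members within 1 library does not depend on how libraries are scaled. The FPKM ratio of Sox4 to Myc was 0.055, 0.113 and 0.262 in Control 43, 44 and 45, 1.29, 1.60 and 2.02 in Model 56, 57 and 59, and 0.881, 0.812 and 1.07 in QYD 65, 66 and 68. The 3 groups did not overlap, and the mean log2 ratio was -3.08 ± 1.12 in Control, 0.69 ± 0.32 in Model and -0.13 ± 0.20 in QYD. The ratio of Klf5 to Klf4 was 0.36 ± 0.08 in Control, 1.71 ± 0.51 in Model and 1.14 ± 0.54 in QYD, with Control below all injured mice and Model and QYD overlapping. The ratio of Klf6 to Myc went from 0.56 ± 0.22 in Control to 2.15 ± 0.44 in Model and 2.10 ± 0.67 in QYD. The ratio of Sox4 to Sox9 went from 1.19 ± 0.72 in Control to 8.26 ± 0.63 in Model and 5.46 ± 1.12 in QYD. The pairs were picked by hand. For Sox4 to Myc or Sox9 and Klf5 to Klf4, a gene that rose on the TMM scale is set over one that fell. For Klf6 to Myc, a gene with a positive change that did not pass is set over one that fell. The shift of all these ratios between Control and Model follows from this choice. The share of all gene pairs that part the groups in this way was not computed. Such ratios show unequal change of the pair and do not say which of its genes changed.

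**Figure D4:**
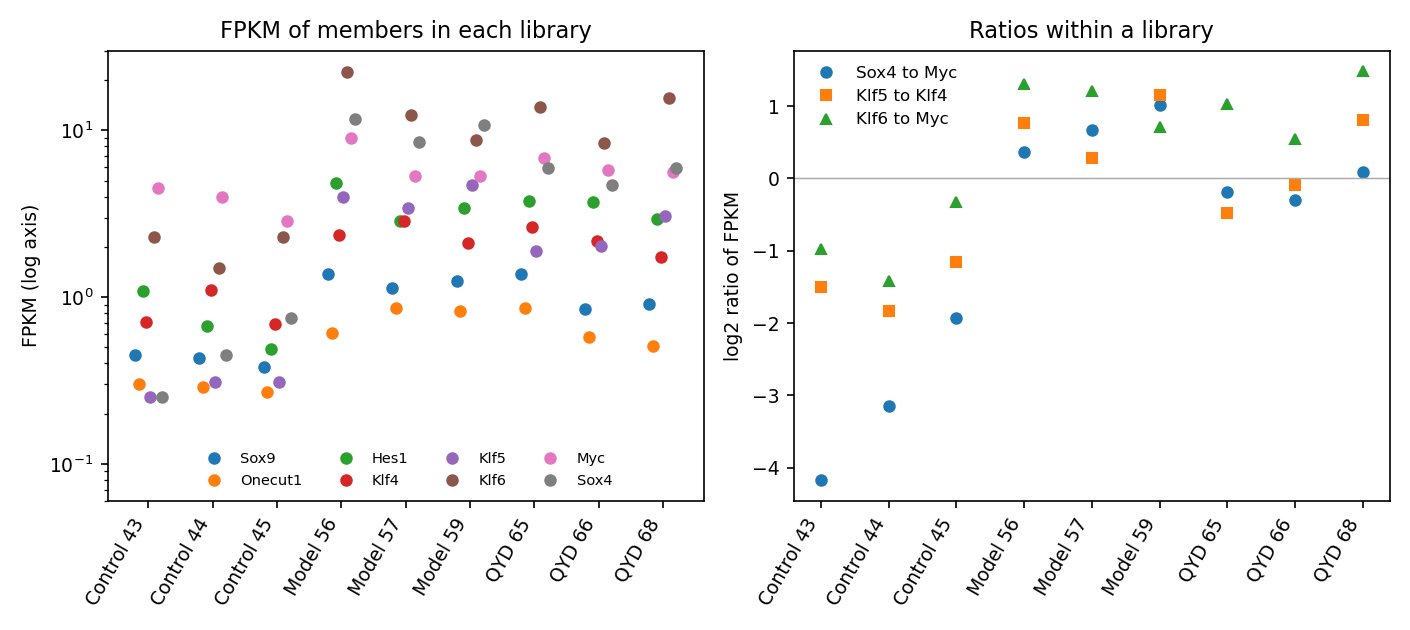
Left, FPKM (log axis) of the 8 tested members in each library; right, log2 ratios of FPKM of Sox4 to Myc, Klf5 to Klf4 and Klf6 to Myc within each library. All 3 ratios are below 0 in every Control library, and Sox4 to Myc is above 0 in the 3 Model libraries.

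Whether mice with pancreatitis given the decoction differ from those given saline is read from QYD versus Model. No member was called, and no gene of the whole table was (0% of 12828), the smallest edgeR adjusted p being 0.83. An unadjusted p under 0.05 was found for 750 genes, DESeq2 called 0 genes and limma-voom with sample weights 1. The largest differences among members were those of Sox4 and Klf5, both with lower values in QYD. Sox4 stood at 18.2, 13.8 and 20.25 CPM on the TMM scale in Model 56, 57 and 59 and at 9.47, 8.61 and 12.4 in QYD 65, 66 and 68. All 3 QYD mice were below all 3 Model mice, as in 8.18% of all tested genes (8.37% on library totals, where the groups did not overlap either). The log2 fold change was -0.78 ± 0.23 on the TMM scale (unadjusted p = 0.0062, edgeR adjusted p = 0.83) and -0.90 ± 0.24 on library totals, which did not pass either, and it ran from -0.95 to -0.66 when 1 library was left out.

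Klf5 stood at 3.52, 3.16 and 4.93 CPM in Model and at 1.70, 2.11 and 3.58 in QYD. QYD 68 lay above both Model 56 and Model 57 on the TMM scale, so the groups overlapped there, whereas on library totals they did not overlap (-0.80 ± 0.24, which did not pass). Its log2 fold change was -0.66 ± 0.27 (unadjusted p = 0.034, edgeR adjusted p = 0.83), -1.03 without QYD 68, -0.45 without Model 59 and -0.44 without QYD 65. Of all tested genes, 5.85% had an unadjusted p under 0.05, and 2.4% had one with a lower value in QYD. By fold change Sox4 lay at percentile 0.69 and Klf5 at percentile 1.18 of the 12828 genes. Markers of other cells also differed in median in this comparison, without a call. The median log2 fold change on the TMM scale was 1.26 for B and plasma cell markers, 0.61 for adipocyte, 0.42 for neutrophil, 0.27 for T and NK cell, 0.26 for macrophage, 0.04 for acinar, -0.06 for fibroblast, -0.14 for endothelial and -0.59 for islet markers. Islet markers, of a cell type in which Sox4 is known to act, had summed levels of 177 to 372 CPM in Model and 124 to 217 in QYD, and B and plasma cell markers of 1.59 to 28.3 and 2.72 to 40.3. Their part in the values of Sox4 and Klf5 was not tested.

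The other 6 tested members differed little between Model and QYD against their error. Log2 fold changes on the TMM scale were 0.02 ± 0.26 for Hes1, 0.01 ± 0.21 for Myc, -0.03 ± 0.31 for Klf6, -0.05 ± 0.18 for Klf4, -0.15 ± 0.30 for Onecut1 and -0.15 ± 0.19 for Sox9. A missed threshold does not show that the groups were alike. None of the members of the 8 pathway lists was called in this comparison.

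**Figure D5:**
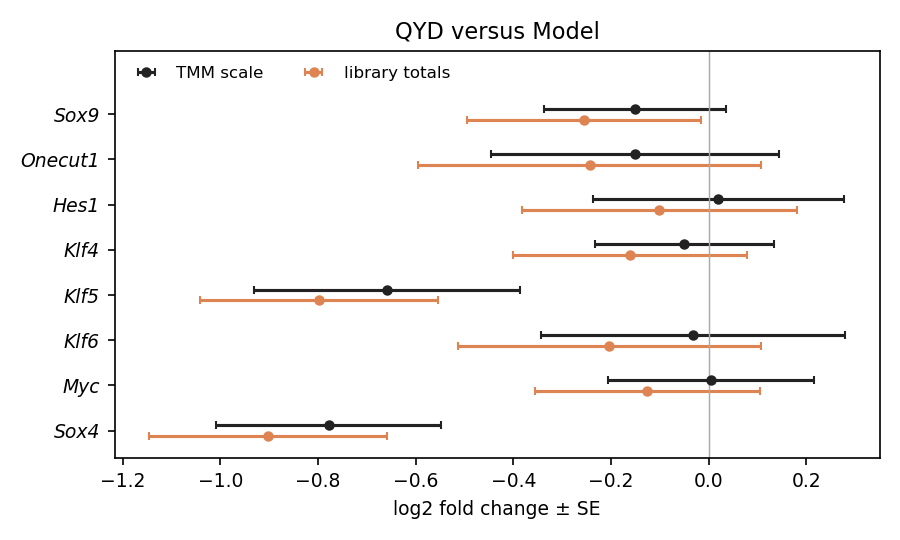
Log2 fold changes ± SE in QYD versus Model of the 8 tested members, on the TMM scale (black) and on library totals (orange). Sox4 (-0.78) and Klf5 (-0.66) lie farthest below 0, and none of the 8 passed the adjusted threshold.

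QYD versus Control shares its Control mice with the first comparison, so each comparison's values are only set side by side. On the TMM scale 1 member was called higher, Sox4 (1.51 ± 0.29, edgeR adjusted p = 0.0022, against 2.29 in Model versus Control), and 3 lower, beside 20.5% and 20.3% of all genes. The lower ones were Myc (-1.37 ± 0.22, edgeR adjusted p = 0.00069), Sox9 (-0.73 ± 0.21, 0.016) and Klf4 (-0.66 ± 0.20, 0.022), all of which were higher on library totals, by 0.67, 1.31 and 1.38. Klf5 did not pass by a small margin (0.99 ± 0.37, edgeR adjusted p = 0.051) and was called without Model 59 (0.045) or QYD 65 (0.024), with 0.63 without QYD 68. Onecut1 (-0.86 ± 0.33, 0.061), Klf6 (0.62 ± 0.33, 0.153) and Hes1 (0.17 ± 0.30, 0.69) did not pass either in the edgeR test. The Klf4 call was lost without Control 44 (edgeR adjusted p = 0.106), QYD 66 (0.056) or QYD 68 (0.065), and that of Sox9 without Control 43 (0.057) or QYD 66 (0.060). On library totals all 8 were called higher, as were 93.8% of all genes.

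Of 13 genes of the MYC-MAX network 11 were tested, and 1 was called higher and 4 lower in Model versus Control on the TMM scale, beside 21.3% of all genes each way, with a median of -0.26. On library totals 9 were called higher, as were 94% of all genes, and 1 lower, with a median of 1.89. Mycn, a paralogue of Myc, fell from 2.99 ± 0.63 to 0.28 ± 0.11 CPM on the TMM scale (-3.39 ± 0.42, edgeR adjusted p = 0.00014) and also on library totals (-1.26). Mxd1, which competes with MYC for MAX, rose from 4.50 ± 1.15 to 15.8 ± 5.24 CPM (1.81 ± 0.26, edgeR adjusted p = 0.00033), and on library totals by 3.98. Mxi1, another such competitor, was lower on the TMM scale (-0.84 ± 0.12) and higher on library totals (1.31). Max itself stood at -0.34 ± 0.14 and did not pass (edgeR adjusted p = 0.076), with 1.81 on library totals.

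Of 32 nucleolar and growth genes linked to MYC, 4 were higher and 16 lower in Model versus Control on the TMM scale. Their median was -0.40, and 21.3% of all genes were called each way. On library totals 31 were higher, as were 94% of all genes, with a median of 1.75, below the 2.19 of all genes. Srm, which makes spermidine, went from 65.99 ± 13.2 to 18.7 ± 2.34 CPM on the TMM scale (-1.82 ± 0.17, edgeR adjusted p = 2.1e-05) and stood at 0.34 on library totals, which did not pass. Cad, the first enzyme complex of pyrimidine synthesis, was lower on the TMM scale (-1.30 ± 0.18) and higher on library totals (0.84), and the polyamine enzyme Odc1 likewise (-0.84 ± 0.12 and 1.32). Of 16 other SOX genes looked for, 7 were tested, and 3 of these were called lower on the TMM scale and none higher, beside 21.3% of all genes each way. They were Sox6 (-2.26 ± 0.26, edgeR adjusted p = 9.6e-05), Sox12 (-1.70 ± 0.29, 0.00086) and the endothelial factor Sox17 (-1.59 ± 0.58, 0.046). The Sox17 call does not hold firmly: its groups overlapped, and it was lost with limma-voom (adjusted p = 0.273), with no filter (edgeR adjusted p = 0.057), with only the compared groups (0.064) and without any 1 library other than Control 45 or Model 59 (edgeR adjusted p of 0.056 to 0.246, the highest without Control 43, where the value was -1.06). On library totals Sox6 stood at -0.11, Sox12 at 0.44 and Sox17 at 0.54, and none of the 3 passed.

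Among the listed duct genes, more rose than fell. This list was chosen with earlier results of these data known, so its counts are a description. Of 28 genes of the duct programme 15 were higher and 6 lower in Model versus Control on the TMM scale, with a median of 1.23, against 21.3% of all genes in each direction. On library totals 24 of the 28 were higher and none lower, with a median of 3.39, beside 94% of all genes called higher. The adhesion molecule Epcam went from 22.4 ± 5.67 to 88.1 ± 10.7 CPM on the TMM scale (1.98 ± 0.19, edgeR adjusted p = 2.5e-05) and the membrane-binding annexin Anxa2 from 16.2 ± 7.05 to 78.5 ± 21.2 (2.28 ± 0.32). The water channel Aqp1, present in ducts and endothelium, fell from 16.0 ± 5.19 to 2.74 ± 0.45 CPM (-2.55 ± 0.24, edgeR adjusted p = 2.5e-05), and on library totals its -0.41 did not pass. In QYD versus Control 14 were higher and 7 lower on the TMM scale, beside 20.5% and 20.3% of all genes, with a median of 0.91.

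Other regulators of acinar plasticity were called higher in 7 and lower in 7 of 23 tested cases in Model versus Control on the TMM scale, beside 21.3% of all genes each way, with a median of -0.12. On library totals 22 were called higher, as were 94% of all genes, with a median of 2.03. Stat3, which carries interleukin-6 signals, rose from 41.0 ± 6.50 to 86.8 ± 9.02 CPM on the TMM scale (1.08 ± 0.14, edgeR adjusted p = 0.00020) and by 3.22 on library totals. Tead2, a DNA-binding partner of YAP, was lower on the TMM scale (-1.63 ± 0.17) and higher on library totals (0.51), and Foxa3 was lower on the TMM scale (-2.04 ± 0.24) with 0.12 on library totals. Of 12 acinar transcription factors 8 were called lower and 1 higher on the TMM scale, beside 21.3% of all genes each way. Their median was -0.69. On library totals 2 were called lower and 10 higher, with a median of 1.45, beside 94% of all genes called higher. Bhlha15 (MIST1), which organises the secretory apparatus, went from 179 ± 15.4 to 16.9 ± 11.6 CPM (-3.41 ± 0.57, edgeR adjusted p = 0.00077) and Rbpjl from 57.8 ± 9.54 to 8.45 ± 4.19 (-2.78 ± 0.29), and both were lower on library totals too (-1.31 and -0.66). Gata4 and Ptf1a were lower on the TMM scale (-1.44 ± 0.24 and -0.78 ± 0.26) and higher on library totals (0.69 and 1.35).

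The genes most like each member in pattern were taken as those with the smallest root mean square difference between centred log2 CPM profiles on the TMM scale over the 9 libraries, among 7308 genes of at least 5 CPM. The profiles were of log2(CPM + 0.5). This offset shrinks the changes of low-level members such as Onecut1 and Klf5 more than those of the genes they were compared with. The lists are a description without a test. For Sox4 the closest genes were the membrane serine protease St14 (a difference of 0.22 log2 units) and the protocadherin Fat1 (0.24), and for Klf5 Ubald2 (0.23) and the adaptor Grb7 (0.24). For Klf6 they were Ywhah (0.20) and Zfp36l1 (0.21), which binds unstable messenger RNA. For Myc they were Fam84b (0.11) and the cationic amino acid transporter Slc7a1 (0.14). The remaining members were closest to Wdr12 (0.09) and Rev1 (0.14) for Hes1, Zbtb7b (0.08) and Uhrf1bp1 (0.10) for Sox9, Itpr2 (0.07) and Abcf1 (0.08) for Onecut1, and Smim19 (0.07) and Wdtc1 (0.08) for Klf4.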

How the data were processed

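RNA was extracted from whole pancreas with Trizol, selected with oligo(dT) beads and sequenced from circularised libraries, per the labels' protocols. The authors deposited estimated counts per gene and library, named read counts per the file headers, of which 93.5% were whole numbers, and so were all 81 values of the 9 members. The authors' table holds FPKM of each library too, per the file headers. HISAT2 2.0.4, Bowtie2 2.2.5 and RSEM 1.2.12 are listed with build GRCm38.p6 in the submitters' processing notes, which do not say what each tool did. The sources used here do not state strandedness, so reads of antisense partners cannot be told apart. The 9 TPM columns and 18 mean columns were not used.

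Counts were rounded, filtered with edgeR 4.0.16's filterByExpr (R 4.3.3; 12828 of 17132 genes left) and scaled by TMM. One quasi-likelihood model with group as its term was fitted to all 9 libraries, leaving 6 residual degrees of freedom, with Benjamini-Hochberg adjustment over all tested genes. The SE is the size of the log2 fold change divided by the square root of F. The labels give separate samples with their own numbers, which are read here as separate mice. The p-values measure the spread between these samples. edgeR's common dispersion corresponds to a biological coefficient of variation of 0.175. The test was also run on simulated counts with few changed genes and no shift in make-up between groups. That run therefore cannot vouch for the test under the shift seen here. Library depth was 19112923 to 20212744 counts.

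The members and the 8 pathway and 9 cell type lists were chosen with earlier results of these data known. Named list genes were, per pathway list, the 3 with the smallest p in Model versus Control and at least 1 CPM in a group, plus Onecut3, Rbpj, Max and Ptf1a. A further gene under that rule is not reported here. Members were named whether or not they passed, and the 2 genes most like each were named. Alternatives were RLE scaling, library totals, TMM without the 50 most abundant genes, no filter, a minimum of 5 CPM reached by 3 samples, limma 3.58.1 (weighted voom, and log2(FPKM + 1) or log2(FPKM + 0.1)), DESeq2 1.42.0, only the compared groups, and each library left out in turn. Gene positions come from RefSeq's table of the same build.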

Additional observations from a re-analysis of the deposited data

How the results depend on the processing

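Scaling decided most of what changed. Settings on library totals are given in this order: library totals, log2(FPKM + 1), log2(FPKM + 0.1) and log2(FPKM + 1) over every gene. FPKM is scaled to library totals as well. These settings tested 8, 7, 7 and 9 members in each comparison, against 8 in the main fit. In Model versus Control 8, 7, 7 and 8 members were called higher against 2, and 0 in each were called lower against 3. The genes called there numbered 12185, 10083, 10086 and 12653 against 5464. In QYD versus Control the same settings gave 8, 7, 7 and 8 members higher against 1, 0 lower against 3, and 12155, 10077, 10071 and 12528 genes against 5222. In QYD versus Model, 1 gene was called by limma-voom, 1 by log2(FPKM + 1), 1 by log2(FPKM + 0.1) and 2 over every gene, against 0. With no filter, with limma-voom and with only the compared groups, 1 member was lower in Model versus Control, of 9, 8 and 8 tested. With no filter or a minimum of 5 CPM, 2 members were higher in QYD versus Control, of 9 and 5 tested. Leaving out 1 library at a time gave 1 to 3 members lower in Model versus Control and 4583 to 5307 genes, and in QYD versus Control 1 to 2 higher, 1 to 3 lower and 4237 to 5139 genes.

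Log2 fold changes that turned sign in Model versus Control were, on library totals, Sox9 1.57, Onecut1 1.42, Klf4 1.54, Myc 0.80, Klf15 0.043, Klf9 1.501, Sox12 0.44, Sox17 0.54, Rfng 0.85, Mxi1 1.31, Srm 0.34, Cad 0.84, Odc1 1.32, Tead2 0.51, Foxa3 0.12, Gata4 0.69, Max 1.81 and Ptf1a 1.35. With log2(FPKM + 1) they were Sox9 0.66, Klf4 0.91, Myc 0.64, Klf9 1.35, Rfng 0.68, Mxi1 1.10, Srm 0.33, Cad 0.57, Odc1 1.27, Tead2 0.52, Foxa3 0.093, Gata4 0.64, Max 1.59 and Ptf1a 1.23, and over every gene also Onecut1 0.45, Sox12 0.17 and Sox17 0.072. With log2(FPKM + 0.1) they were Sox9 1.37, Klf4 1.46, Myc 0.76, Klf9 1.4998, Rfng 0.86, Mxi1 1.29, Srm 0.34, Cad 0.83, Odc1 1.31, Tead2 0.54, Foxa3 0.14, Gata4 0.75, Max 1.80 and Ptf1a 1.35. In QYD versus Control they were, on library totals, Sox9 1.31, Onecut1 1.18, Klf4 1.38 and Myc 0.67, with log2(FPKM + 1) Sox9 0.52, Klf4 0.79 and Myc 0.57 (Onecut1 0.35 over every gene), and with log2(FPKM + 0.1) Sox9 1.11, Klf4 1.30 and Myc 0.68. In QYD versus Model, values near 0 turned: Hes1 -0.10 and Myc -0.13 on library totals, -0.056 and -0.074 with log2(FPKM + 1), -0.066 and -0.080 with log2(FPKM + 0.1), and Myc -0.0075 with RLE, -0.0074 with DESeq2 and -0.0054 with only the compared groups. When 1 library was left out, Hes1 ran from -0.098 to 0.55 in Model versus Control and from -0.077 to 0.57 in QYD versus Control, and in QYD versus Model Hes1 ran from -0.15 to 0.20, Klf4 from -0.12 to 0.050, Klf6 from -0.35 to 0.35 and Myc from -0.14 to 0.24. Of 465 values of members under alternatives, 369 kept their direction and side of the threshold, 51 turned sign, 21 lost the threshold and 24 gained it. Apart from the scaling itself, the cause was not tested. Counts of about 10 per Control library limit Onecut1 and Klf5. No paired analysis was possible because the groups share no replicate numbers.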
